A study of Homo sapiens
Rattus norvegicus and Homo sapiens with 10 samples.

Results

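The host genes of small nucleolar RNAs (snoRNAs) were described here by 31 of the 62754 rows of the gene table: every gene named SNHG followed by a number, together with GAS5, ZFAS1 and EPB41L4A-AS1. They were picked by name and not by a cut on any measured value, though with earlier results of these data known. All 31 had counts in the culture, and 29 or 30 of them were counted in each tumour.

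A snoRNA host gene makes a spliced RNA, usually with little coding capacity, whose introns carry snoRNAs that are released after splicing and guide the modification or cleavage of ribosomal and other RNAs. Box C/D snoRNAs direct methylation of ribose, box H/ACA snoRNAs direct the change of uridine to pseudouridine, and scaRNAs do the same for spliceosomal RNAs in Cajal bodies. Many hosts, like the mRNAs of ribosomal proteins, begin with a run of pyrimidines called a 5′ terminal oligopyrimidine (TOP) tract. Several of the spliced host RNAs are degraded by nonsense-mediated decay when they are translated, and GAS5 was named for its rise in cells that stop growing.

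All the in vivo libraries came from adult female athymic RNU/RNU rats, which lack T cells, and the tumours were grown from a single human glioblastoma line, U251N, injected into the brain. The recurrent group was 3 tumours that regrew after LITT, laser interstitial thermal therapy, which heats a tumour from a fibre placed within it under magnetic resonance imaging. The primary group was 3 tumours never ablated. The tumour-free control group was 1 failed graft and 2 procedural controls, all 3 under the same treatment label, procedural / failed-graft control. The culture was 1 library of the line grown in vitro, kept by the submitters as a reference outside the experiment. With 1 line and 1 culture, no value here carries a spread between lines or between cultures. Nothing in the labels says whether the libraries are from separate animals, so the p-values measure the spread between these samples, which may be technical.

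Total estimated counts ran from 20321590 to 25299612 in the recurrent tumours, from 25316552 to 39714714 in the primary tumours and from 1358753 to 4158124 in the controls, and were 65058642 in the culture. Structural small RNAs took 7.03% to 13.39% of the counts in recurrent tumours, 6.41% to 14.51% in primary tumours, 31.7% to 92.63% in controls and 6.8% in the culture. Levels are given as CPM, counts scaled to a library total of 1000000. Summed genes typical of U251 cells (VIM, NES, CD44, S100A6, LGALS1 and EGFR) stood at 8323 to 9228 CPM in the tumours, at 116, 555 and 6912 CPM in controls 1, 2 and 3, and at 10909 CPM in the culture, so control 3 held many counts of these genes. Primary tumour 2 stood apart among the tumours, with 35.5% of all tested genes at their lowest there, the lowest RNA integrity number of the tumours (7.8) and the largest structural small RNA share among them (14.51%). Values without it are given beside many of the results.

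By the GENCODE release 29 annotation of GRCh38, all 31 genes could be placed, 4 of them under an older name (SNHG29 was LRRC75A-AS1 and SNHG32 was C6orf48, then typed as protein coding). Inside 29 of them on the same strand lay 143 genes of small RNAs, 138 snoRNAs and 5 scaRNAs, and none was listed within GAS5 or SNHG27 in that release. SNHG14, a transcript of the imprinted Prader-Willi region on chromosome 15 that runs antisense to UBE3A, alone held 84 of them across 440880 bases. Of the 31 hosts, 16 overlapped a coding gene on the other strand and 5 on the same strand. For these 5, among them SNHG3 with RCC1 and SNHG20 with SEC14L1, the count depends on how Salmon divided shared reads.

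At least 1 annotated transcript began with a C followed by 4 or more pyrimidines in 15 of the 31 hosts (48.4%), against 6.6% of all genes. Hosts have many annotated transcripts, and among genes with 5 or more the counts were 11 of 17 hosts and 20.8% of genes. Counted by transcript, 39 of 292 host transcripts (13.4%) began so, against 2.41% of all transcripts. Of the 10 most abundant hosts 8 had such a transcript, and SNHG14 and SNHG17 had none. The first 24 bases are printed for 8 hosts picked because they have this start, to show its form, 5′ to 3′ on the transcribed strand, with the unbroken run of pyrimidines in capitals.
SNHG3 (chr1:28506043-28506066, plus): CCTTTTTggagacagattcgcagt
SNHG29 (chr17:16439037-16439060, plus): CTTTTCattcccgttgttatggag
SNHG16 (chr17:76557769-76557792, plus): CTTTTCgaggtcggccgcgtggct
GAS5 (chr1:173867966-173867989, minus): CTTTTCgaggtaggagtcgactcc
ZFAS1 (chr20:49278642-49278665, plus): CTTTCgcgtctgcggtgcccggag
SNHG1 (chr11:62855456-62855479, minus): CTCCTgtctgcaggatttacgcgc
SNHG12 (chr1:28581850-28581873, minus): CCTTTCTCCCCgccgcattcccgg
SNHG5 (chr6:85678710-85678733, minus): CTTTTacgtcggccttcgcgagcg
The run at the start was 5 to 11 bases long in these 8. Only some annotated transcripts of each host began at the printed position: 1 of 3 for SNHG3, 5 of 30 for SNHG29, 2 of 8 for SNHG16 and 6 of 29 for GAS5, and 2 of 10 for ZFAS1, 1 of 25 for SNHG1, 2 of 17 for SNHG12 and 3 of 23 for SNHG5. The start position is that of an annotated transcript and was not measured in these libraries. For SNHG1 the printed position lies inside the gene, downstream of the nested SNORD25.

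Small RNAs inside the hosts are shown for SNHG3, the most abundant host, whose pair of H/ACA RNAs (U17) takes part in cleavage of the ribosomal RNA precursor, and for a box C/D RNA each of SNHG1 and ZFAS1. Capitals mark the ACA box near the 3′ end of the H/ACA RNAs, and box C (ATGATGA) and box D (CTGA) of the C/D RNAs, on the GRCh38 build.
SNORA73B in SNHG3 (chr1:28508559-28508762, plus): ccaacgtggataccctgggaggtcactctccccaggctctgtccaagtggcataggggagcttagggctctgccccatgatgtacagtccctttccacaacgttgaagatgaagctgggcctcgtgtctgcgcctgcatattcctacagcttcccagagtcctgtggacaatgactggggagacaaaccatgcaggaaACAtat
SNORA73A in SNHG3 (chr1:28507366-28507571, plus): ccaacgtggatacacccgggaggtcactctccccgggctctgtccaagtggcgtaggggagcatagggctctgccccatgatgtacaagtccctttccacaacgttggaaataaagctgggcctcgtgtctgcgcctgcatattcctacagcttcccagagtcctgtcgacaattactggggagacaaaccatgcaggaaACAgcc
SNORD27 in SNHG1 (chr11:62855012-62855083, minus): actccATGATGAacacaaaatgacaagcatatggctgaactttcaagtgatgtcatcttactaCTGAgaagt
SNORD12B in ZFAS1 (chr20:49280319-49280409, plus): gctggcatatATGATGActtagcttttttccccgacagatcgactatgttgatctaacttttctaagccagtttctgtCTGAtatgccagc
In 19 hosts some annotated transcript held a nested small RNA whole, as 1 of 3 SNHG3 transcripts held SNORA73A and 4 of 25 SNHG1 transcripts held SNORD27. In such genes, reads from the unspliced host and from the small RNA cannot be told apart by sequence alone.

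The hosts together took 0.135%, 0.111% and 0.113% of the counts in the recurrent tumours, 0.131%, 0.177% and 0.116% in the primary tumours, 0.002%, 0.009% and 0.072% in the controls and 0.163% in the culture. As CPM of the counts outside structural small RNAs their sums were 1559, 1197 and 1257 in recurrent tumours, 1448, 2066 and 1235 in primary tumours, 250, 906 and 1058 in controls and 1751 in the culture. Primary tumour 2 was thus the only tumour above the culture.

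SNHG3 had 621, 363 and 441 CPM in recurrent tumours and 517, 731 and 389 CPM in primary tumours, with 432 CPM in the culture. SNHG29, host of SNORD49A, SNORD49B and SNORD65, had 138, 146 and 151 CPM in recurrent and 175, 289 and 182 CPM in primary tumours, with 273 CPM in the culture. The SNHG3 groups overlapped, whereas all 3 recurrent tumours lay below all 3 primary tumours for SNHG29.

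SNHG16, host of the SNORD1 family, had 100, 127 and 119 CPM in recurrent and 106, 126 and 119 CPM in primary tumours, with 158 CPM in the culture. GAS5, whose RNA also acts as a decoy for the glucocorticoid receptor, had 113, 107 and 69.0 CPM in recurrent and 126, 133 and 108 CPM in primary tumours, with 214 CPM in the culture. SNHG14 had 77.6, 80.8 and 72.3 CPM in recurrent and 76.3, 79.2 and 76.2 CPM in primary tumours, with 92.8 CPM in the culture. SNHG16, GAS5 and SNHG14 lay below the culture in all 6 tumours, and SNHG14 varied least among the tumours of the 3.

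SNHG6, host of SNORD87, had 38.1, 43.0 and 47.2 CPM in recurrent and 50.0, 80.7 and 47.3 CPM in primary tumours, with 57.0 CPM in the culture. ZFAS1, host of the SNORD12 family and antisense to ZNFX1, had 36.9, 37.3 and 35.9 CPM in recurrent and 36.9, 60.8 and 34.5 CPM in primary tumours, with 81.0 CPM in the culture. SNHG1 had 36.3, 34.4 and 22.2 CPM in recurrent and 33.6, 30.6 and 33.6 CPM in primary tumours, with 66.2 CPM in the culture. Primary tumour 2 was high for SNHG6 and ZFAS1 and was the lowest primary tumour for SNHG1, whose lowest value was in recurrent tumour 3.

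SNHG12, host of SNORA44, SNORA61, SNORA16A and SNORD99, had 35.3, 23.0 and 23.7 CPM in recurrent and 32.3, 33.5 and 26.9 CPM in primary tumours, with 36.5 CPM in the culture. SNHG17, host of the SNORA71 family, had 28.5, 29.1 and 25.7 CPM in recurrent and 25.8, 26.2 and 25.3 CPM in primary tumours, with 36.0 CPM in the culture. The groups overlapped for both. Of the other hosts, SNHG20, SNHG7, SNHG8 and SNHG5 averaged 15.3 to 21.4 CPM over the 6 tumours, 14 averaged 1.21 to 9.90 CPM, and SNHG18, SNHG26 and SNHG27 averaged 0.35, 0.0333 and 0.00823 CPM.

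SNHG7, host of SNORA17A and SNORA17B, ran from 18.4 to 22.2 CPM in recurrent and from 18.9 to 23.1 CPM in primary tumours, with 21.6 CPM in the culture. SNHG8, host of SNORA24, ran from 15.1 to 17.4 CPM in recurrent and from 13.0 to 22.4 CPM in primary tumours, with 22.7 CPM in the culture. SNHG5, host of SNORD50B, ran from 13.8 to 16.8 CPM in recurrent and from 12.1 to 17.7 CPM in primary tumours, with 28.3 CPM in the culture. The recurrent and primary tumours overlapped for each of these 3. The tumours lay on both sides of the culture for SNHG7, and all 6 lay below it for SNHG8 and SNHG5.

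SNHG15, host of SNORA9, ran from 8.12 to 8.83 CPM in recurrent and from 8.60 to 12.7 CPM in primary tumours, with 15.4 CPM in the culture. SNHG19, host of SNORD60, ran from 2.47 to 4.27 CPM in recurrent and from 2.89 to 6.02 CPM in primary tumours, with 5.36 CPM in the culture. SNHG11, host of SNORA60 and SNORA71E, ran from 1.43 to 2.42 CPM in recurrent and from 1.91 to 3.32 CPM in primary tumours, with 2.23 CPM in the culture. These hosts overlapped between the groups, with both the lowest and the highest value further down in the recurrent tumours.

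The scaRNA hosts SNHG22 (SCARNA17) and SNHG21 (SCARNA15) were low. SNHG22 ran from 0.632 to 1.96 CPM in recurrent and from 0.831 to 2.69 CPM in primary tumours, and SNHG21 from 0.672 to 1.74 CPM in recurrent and from 1.33 to 2.42 CPM in primary tumours, with 2.04 and 2.05 CPM in the culture. SNHG9 ran from 0.601 to 1.51 CPM in recurrent and from 1.11 to 1.80 CPM in primary tumours, and SNHG25 from 0.336 to 1.35 CPM in recurrent and from 0.984 to 1.88 CPM in primary tumours, with 1.31 and 1.27 CPM in the culture. SNHG26, host of SNORD93, was counted in recurrent tumour 3 (0.160 CPM), primary tumour 1 (0.0394 CPM) and the culture (0.430 CPM), and SNHG27 in recurrent tumour 1 (0.0494 CPM) and the culture (0.0154 CPM).

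Per kilobase of annotated exon, so that hosts can be set beside each other, the tumour mean was 125 CPM for SNHG3, 47.9 for SNHG29, 40.9 for SNHG6, 30.1 for GAS5, 21.7 for SNHG16, 18 for ZFAS1 and 17.9 for SNHG8. SNHG14, the fifth by CPM, came to 1.78 CPM per kilobase because its annotated exons add up to 43324 bases.

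**Figure D1:**
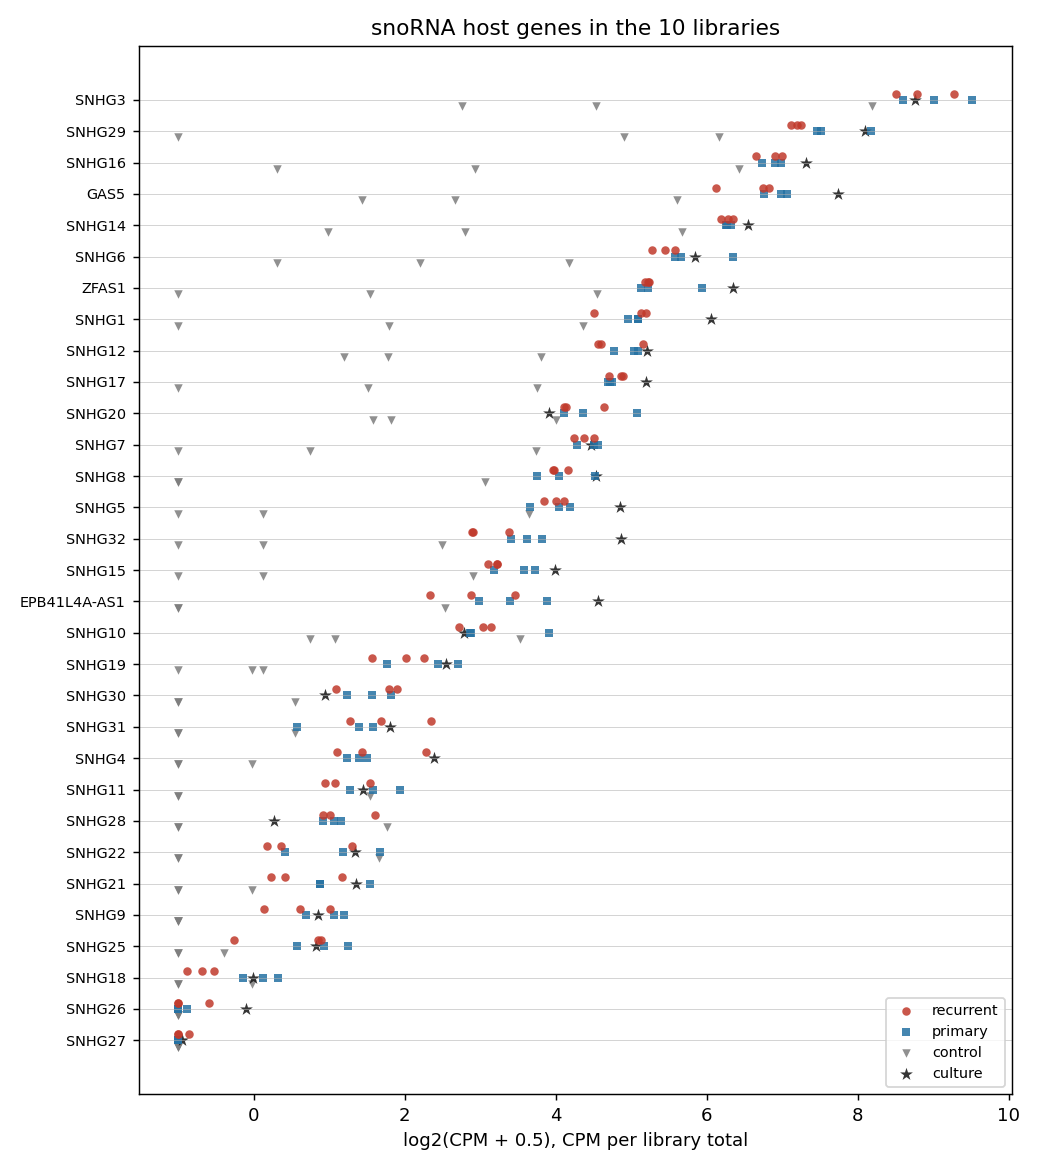
Level of each of the 31 hosts as log2(CPM + 0.5) in each of the 10 libraries, with recurrent tumours as red circles, primary tumours as blue squares, controls as grey triangles and the culture as a black star; values at the left edge are counts of 0. SNHG3 leads in every tumour, and 2 of the 3 controls lie far left of the tumours for most hosts.

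Small RNAs were counted for 78 of the 143 nested genes, and 41 were tested. SNORA73B led with 852, 513 and 735 CPM in recurrent tumours and 754, 1361 and 588 CPM in primary tumours, with 606 CPM in the culture. SNORA73A had 188, 97.2 and 108 CPM in recurrent and 138, 162 and 110 CPM in primary tumours, with 143 CPM in the culture. The count of SNORA73B was 1.37 to 1.86 times that of SNHG3 in the tumours and 1.4 times in the culture, and host and small RNA were both highest in primary tumour 2.

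The same tumour was the highest for the scaRNAs of SNHG10 and SNHG20. SCARNA13, which lies in SNHG10, had 48.4, 43.3 and 38.9 CPM in recurrent and 55.2, 110 and 41.3 CPM in primary tumours, with 33.2 CPM in the culture, while SNHG10 itself had 8.34, 6.07 and 7.71 CPM in recurrent and 6.80, 14.6 and 6.84 CPM in primary tumours, with 6.39 CPM in the culture. SCARNA16, in SNHG20, had 43.2, 26.1 and 24.9 CPM in recurrent and 30.8, 47.4 and 20.0 CPM in primary tumours, with 24.7 CPM in the culture, while SNHG20 had 24.5, 17.0 and 16.7 CPM in recurrent and 20.0, 33.1 and 16.8 CPM in primary tumours, with 14.6 CPM in the culture. How far reads of the small RNAs enter the counts of SNHG3, SNHG10 and SNHG20 was not tested.

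The box C/D RNAs ran differently. Summed over the 26 named genes outside SNHG14, they had 78.7, 64.4 and 40.0 CPM in recurrent and 62.9, 51.2 and 72.5 CPM in primary tumours, with 106 CPM in the culture. These sums hold no small RNA of GAS5, since the annotation used lists none within it. The box H/ACA RNAs other than SNORA73A and SNORA73B had 99.0, 63.3 and 48.4 CPM in recurrent and 74.0, 69.8 and 69.1 CPM in primary tumours, with 81.4 CPM in the culture. For both kinds recurrent tumour 1 was the highest and recurrent tumour 3 the lowest of the 6, and primary tumour 2 lay between them. SNORD27, printed above, was also highest in recurrent tumour 1 and lowest in recurrent tumour 3, with 14.0, 9.80 and 5.24 CPM in recurrent and 11.1, 8.73 and 12.7 CPM in primary tumours, and 19.6 CPM in the culture.

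SNHG14 carries SNORD116 and SNORD115, families of box C/D RNAs encoded in long arrays, of which SNORD115 is known as largely restricted to neurons. Of the 30 SNORD116 genes 25 were counted, with sums of 48.6, 47.6 and 26.3 CPM in recurrent and 52.6, 47.7 and 48.4 CPM in primary tumours, and 63.0 CPM in the culture. Of the 49 SNORD115 genes 3 had any count, with sums of 0.0395 CPM in recurrent tumour 2 and 0.079 CPM in primary tumour 2 and no count in the other 8 libraries. Where no read was counted the limit was set at 3 counts, or 0.076 to 0.148 CPM in the tumours, and this covers counting error only. Copies within each family are near-identical, so how Salmon divided reads among them sets the count of a single copy, and no copy is described by itself.

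**Figure D2:**
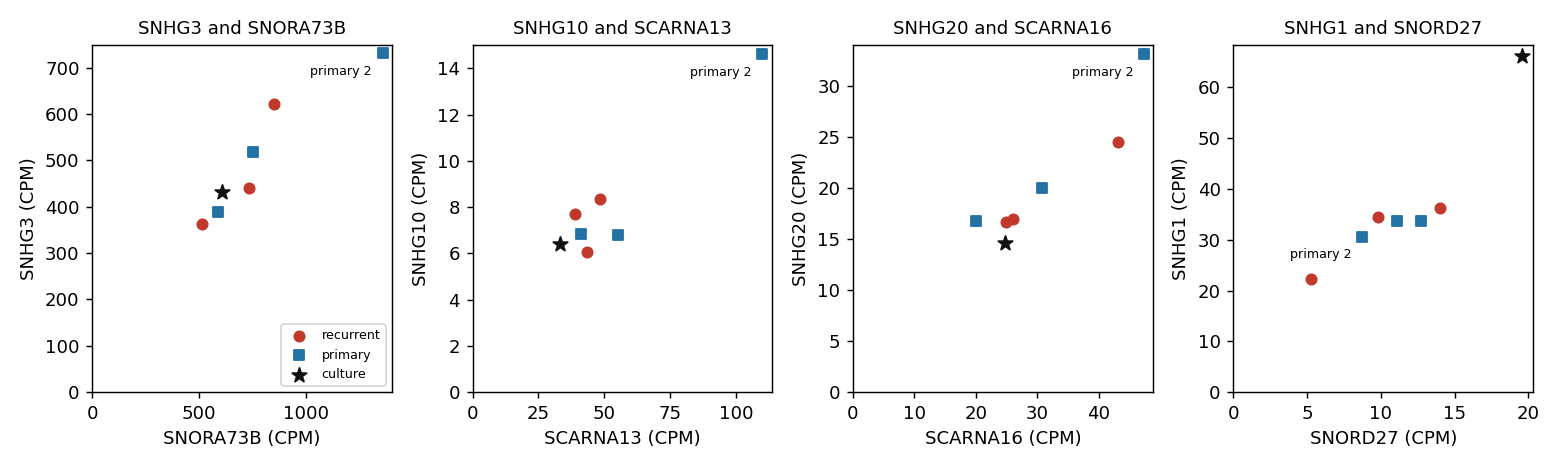
Level of 4 hosts (vertical axes, CPM) against a small RNA that lies within each (horizontal axes, CPM) in the 3 recurrent tumours (red circles), the 3 primary tumours (blue squares) and the culture (black star). SNHG3, SNHG10 and SNHG20 are highest in primary tumour 2 together with their small RNA, while SNHG1 and SNORD27 are highest in the culture.

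The comparison of recurrent with primary tumours asks how tumours that grew back after LITT differ from tumours never ablated. No host was called higher or lower in recurrent tumours by edgeR at an adjusted p under 0.05. Of 15928 genes tested, 0.0% were called higher and 0.00628% lower, which is 1 gene, and 29 of the 31 hosts entered the test (SNHG26 and SNHG27 had too few counts). Their adjusted p ran from 0.567 to 0.985, DESeq2 called no host although it called 0.427% of genes higher and 0.308% lower (smallest adjusted p of a host 0.259), and limma-voom called none. At an unadjusted p under 0.05, edgeR gave 3 hosts lower and 0 higher, against 3.79% and 4.59% of all genes.

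Most estimates lay on the low side. The edgeR log2 fold change was below 0 for 24 of the 29 hosts (82.8%), against 51.0% of all genes, with a median of -0.30 for the hosts and -0.01 for all genes. Without primary tumour 2 the median of the hosts was -0.08 and 15 of 29 were below 0. Primary tumour 2 held the highest value of the 6 tumours for 17 of the 29 hosts, against 20.5% of all genes, and the lowest for none of them. The graft made up 29.44% to 42.67% of reads in recurrent tumours and 42.52% to 64.40% in primary tumours, and with that percentage as a covariate the median was -0.57. In that fit 0 genes were called. The 2 groups barely overlap in graft percentage, so group and graft percentage cannot be told apart with these 6 tumours. In bulk tissue, fewer cells of a type and less RNA per cell cannot be told apart.

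All 3 recurrent tumours lay below all 3 primary tumours for 4 hosts, SNHG29, SNHG32, SNHG6 and SNHG18, against 7.76% of all genes, and above them for 0, against 6.47%. SNHG29 averaged 145 ± 6.55 CPM in recurrent and 215 ± 63.9 CPM in primary tumours (SD, n = 3 each), a log2 fold change of -0.60 (SE 0.22, adjusted p = 0.567 by edgeR), which was -0.27 without primary tumour 2. SNHG32, host of SNORD48 and SNORD52, had 6.99, 6.93 and 9.91 CPM in recurrent and 11.8, 13.6 and 10.1 CPM in primary tumours, with 28.6 CPM in the culture. Its log2 fold change was -0.60 (SE 0.24, adjusted p = 0.572 by edgeR), and -0.44 without primary tumour 2, and the highest recurrent and lowest primary tumour nearly met.

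SNHG18, host of SNORD123, had 0.197, 0.119 and 0.0401 CPM in recurrent and 0.591, 0.750 and 0.403 CPM in primary tumours, with 0.492 CPM in the culture. It had the most negative estimate of the hosts, -2.30 (SE 0.85, adjusted p = 0.567 by edgeR), and -2.02 without primary tumour 2, at levels where a recurrent tumour held only a few counts. SNHG6 gave -0.50 (SE 0.23, adjusted p = 0.590) and -0.16 without primary tumour 2. None of the 4 passed the test over all genes.

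Among the hosts with the smallest p on the other side, SNHG31, host of SNORA70I, had 1.92, 4.59 and 2.73 CPM in recurrent and 0.985, 2.13 and 2.49 CPM in primary tumours, with 2.98 CPM in the culture. SNHG4, host of SNORA74A, had 2.19, 4.36 and 1.65 CPM in recurrent and 2.32, 2.12 and 1.86 CPM in primary tumours, with 4.75 CPM in the culture. SNHG28 had 1.38, 2.54 and 1.52 CPM in recurrent and 1.58, 1.38 and 1.73 CPM in primary tumours, with 0.701 CPM in the culture. The groups overlapped for all 3, and recurrent tumour 2 held the highest value of each. Their log2 fold changes were 0.68 (SE 0.48), 0.34 (SE 0.44) and 0.19 (SE 0.44), with edgeR adjusted p of 0.695, 0.829 and 0.914.

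For the other abundant hosts the estimates lay less than 2 SE from 0, and their groups overlapped. The log2 fold change was -0.36 (SE 0.20) for GAS5, -0.30 (SE 0.23) for ZFAS1, -0.22 (SE 0.29) for SNHG3, -0.19 (SE 0.21) for SNHG12 and -0.09 (SE 0.19) for SNHG1. It was -0.04 (SE 0.15) for SNHG16, -0.02 (SE 0.13) for SNHG14 and 0.09 (SE 0.14) for SNHG17. Without primary tumour 2, SNHG3 gave 0.10, ZFAS1 0.07, SNHG16 0.06 and SNHG14 0.04, so the sign of these 4 turned.

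**Figure D3:**
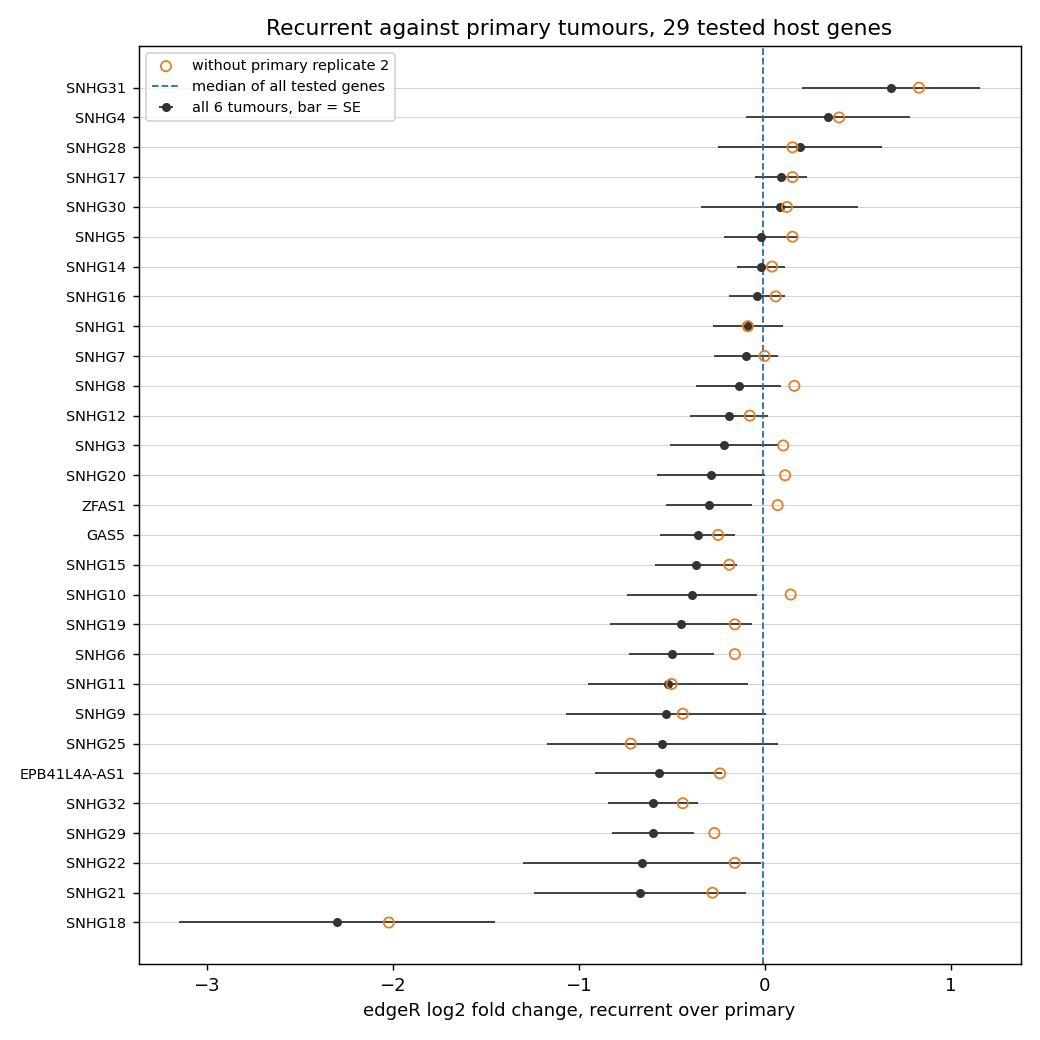
edgeR log2 fold change of recurrent over primary tumours for the 29 tested hosts (points, with bars of 1 SE), the same without primary replicate 2 (open circles) and the median of all tested genes (dashed line). Of the 29 points 24 lie below 0, and 15 of the open circles do.

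The nested small RNAs showed no call either. Of the 41 tested, 0 passed at an adjusted p under 0.05 by edgeR and 0 had an unadjusted p under 0.05. Their log2 fold changes were below 0 for 30 and above 0 for 11, with a median of -0.17 and adjusted p from 0.605 to 0.989. Of these 41, 16 are near-identical copies of SNORD116 from the single host SNHG14, which share reads and do not count as separate small RNAs, and 14 of the 16 were below 0 and 2 above. The other 25 split into 16 below and 9 above 0, against 51.0% of all genes below 0, with a median of -0.15, and into 14 below with a median of -0.12 without primary tumour 2. Among these 25 the lowest of the 6 tumours was recurrent tumour 3 for 16, against 16.7% of all genes, and the highest was recurrent tumour 1 for 17, against 12.3%; several of the 25 also share a host. The tested hosts were highest in recurrent tumour 1 for 2 and lowest in recurrent tumour 3 for 10 of 29. SCARNA13 averaged 43.5 ± 4.79 CPM in recurrent and 68.7 ± 36.1 CPM in primary tumours (SD, n = 3 each).

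Genes around the hosts were taken from lists written with earlier results of these data known, and none of their genes was called in this comparison by edgeR. All 29 ribosomal protein genes had a log2 fold change below 0, with a median of -0.40, which was -0.12 without primary tumour 2. Of 20 other translation genes with TOP tracts, 18 were below 0, with a median of -0.24, and -0.10 without that tumour. EEF1A1, the elongation factor that brings tRNA to the ribosome, averaged 4965 ± 512 CPM in recurrent and 6786 ± 1455 CPM in primary tumours (SD, n = 3 each, adjusted p = 0.572 by edgeR). TPT1, a TOP mRNA of a tubulin-binding growth protein, averaged 1002 ± 141 CPM in recurrent and 1499 ± 498 CPM in primary tumours (SD, n = 3 each, adjusted p = 0.573 by edgeR). The 27 coding genes that carry snoRNAs had 17 below 0 and a median of -0.16, and -0.05 without primary tumour 2.

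The proteins that bind snoRNAs and the decay pathway were near 0. Of the 8 core proteins of snoRNA particles 2 were above and 6 below 0, with a median of -0.08, among them DKC1, the pseudouridine synthase of H/ACA RNAs, at 139 ± 23.2 CPM in recurrent and 117 ± 10.4 CPM in primary tumours (SD, n = 3 each). Of the 11 assembly factors 6 were above and 5 below, with a median of 0.05. Of the 18 factors of nonsense-mediated decay 12 were above and 6 below 0, also with a median of 0.05, and SMG5, which recruits the enzymes that cut or decap the target, averaged 123 ± 7.15 CPM in recurrent and 101 ± 19.4 CPM in primary tumours (SD, n = 3 each). Of 9 mRNAs known as targets of that decay, which include SMG5 and UPF1, 4 were above and 5 below, with a median of -0.01, and of 9 tested genes of the MYC network 3 were above and 6 below, with a median of -0.02. MYC itself, a regulator of ribosome production, averaged 65.4 ± 8.42 CPM in recurrent and 63.8 ± 18.7 CPM in primary tumours (SD, n = 3 each).

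Summed markers of other cells that a dissected tumour could hold were read beside these estimates. The 6 astrocyte genes summed to 774, 677 and 749 CPM in recurrent and 960, 1035 and 1103 CPM in primary tumours, with 318 CPM in the culture. The 5 endothelial genes summed to 3.44, 4.99 and 6.34 CPM in recurrent and 2.38, 1.81 and 2.82 CPM in primary tumours, with 3.46 CPM in the culture and 1 of the 5 at 0 in all tumours. The 8 neuronal genes ran from 769 to 1023 CPM in recurrent and from 873 to 1433 CPM in primary tumours, and the 6 oligodendrocyte genes from 124 to 201 CPM in recurrent and from 162 to 180 CPM in primary tumours. The 6 microglial genes ran from 2.04 to 3.99 CPM in recurrent and from 1.62 to 3.90 CPM in primary tumours, 3 of them at 0 in all tumours, and the 4 blood genes were at 0 in every library. Since the culture also expressed the astrocyte, neuronal and oligodendrocyte genes, these sums do not mark rat tissue alone, and their part in the estimates for the host genes was not tested.

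Tumours were next set beside the culture, to see how the hosts stand in cells grown in the brain against cells grown in a dish. There was 1 culture library and so no test. Of the 28 hosts at 1 CPM or more in the culture or on average in the tumours, 13 were lower than the culture in all 6 tumours, against 34.6% of the 14819 genes compared, and 3 were higher in all 6, against 20.5%. The mean log2 ratio, with 0.5 CPM added to each value, was below 0 for 23 of the 28 hosts, against 58.3% of genes, and its median was -0.43 for the hosts and -0.11 for all genes. Scaled by TMM the medians were -0.36 and -0.04, and 11 hosts were lower in all 6 tumours, against 30.3% of genes. Without primary tumour 2, 18 hosts were lower than the culture in all of the other tumours, against 37.2% of genes, and the same 3 hosts were higher, against 25.9%.

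A difference of more than 2-fold in all 6 tumours was found for 1 host lower, SNHG32, against 3.72% of all genes, and for 0 higher, against 1.64%. SNHG32 averaged 34.6% of its culture level, with a log2 ratio from -1.97 to -1.05 over the tumours. With TMM-scaled totals, or with structural small RNAs left out of the totals, it no longer passed 2-fold in every tumour and no host did. Without primary tumour 2 there were 3, SNHG32, EPB41L4A-AS1 and ZFAS1.

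EPB41L4A-AS1, host of SNORA13, had 4.56, 10.5 and 6.82 CPM in recurrent and 7.42, 14.2 and 10.0 CPM in primary tumours, against 23.1 CPM in the culture. It averaged 38.7% of the culture level, SNHG1 48.0%, ZFAS1 49.9%, SNHG4 50.8%, GAS5 51.2%, SNHG5 54.2% and SNHG15 63.1%. Each of these 7 was below the culture in all 6 tumours. SNHG16, SNHG17, SNHG8, SNHG12 and SNHG14 were also below it in all 6, at 72.7% to 83.0%, and with either other total SNHG8 and SNHG12 no longer were. SNHG29 was below the culture in 5 of 6 tumours, primary tumour 2 being above it.

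The hosts above the culture in all 6 tumours were SNHG20, SNHG28 and SNHG30. SNHG30, host of SNORD7, had 2.95, 1.62 and 3.21 CPM in recurrent and 3.03, 2.45 and 1.86 CPM in primary tumours, against 1.43 CPM in the culture. SNHG28 averaged 241% of the culture, SNHG30 176% and SNHG20 146%, whereas SNHG3 (118%) was above the culture in 4 tumours and below it in 2. SNHG28 and SNHG20 overlap a coding gene on the same strand, and the part of that gene's reads in their counts was not tested.

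**Figure D4:**
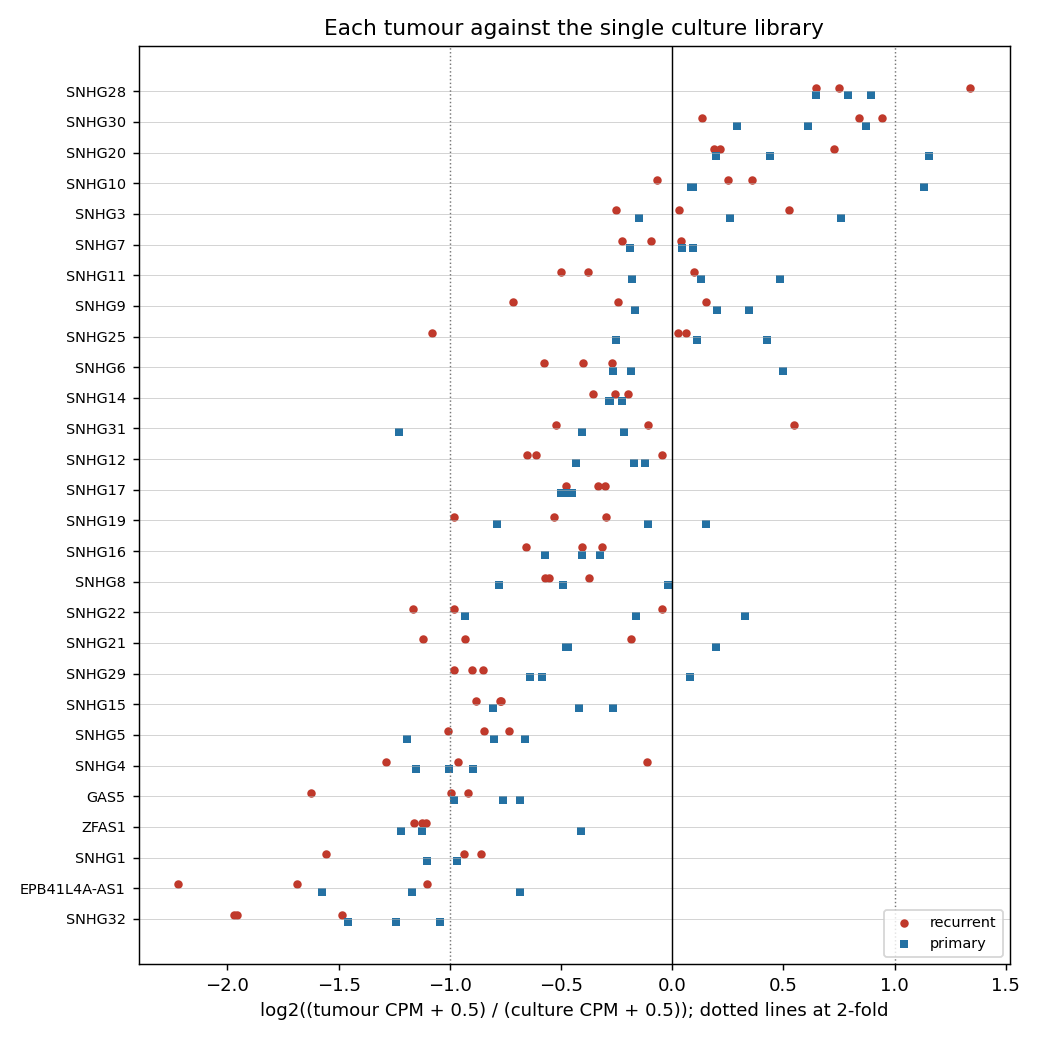
log2 ratio of each tumour to the single culture library, with 0.5 CPM added to each value, for the 28 hosts compared, recurrent tumours as red circles above primary tumours as blue squares; dotted lines mark a 2-fold difference. SNHG32 is left of the lower line in all 6 tumours, and SNHG28, SNHG30 and SNHG20 are right of 0 in all 6.

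Of the 14 compared hosts with a pyrimidine start 8 were below the culture in all 6 tumours and 0 above, with a median log2 ratio of -0.46. Of the 14 without one, 5 were below and 3 above, with a median of -0.30. Ribosomal protein genes, whose mRNAs are the best known with such starts, had other counts: of the 29 ribosomal protein genes 0 were below and 8 above it in all 6 tumours, with a median of 0.13, and of the 20 other TOP genes 4 were below and 3 above, with a median of -0.06. Coding snoRNA hosts had 5 below and 9 above of 27, with a median of 0.14, and the core proteins of snoRNA particles 0 below and 4 above of 8, with a median of 0.26. These counts were set against 34.6% and 20.5% of all genes, and differences between the lists were not tested.

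The mRNA targets of nonsense-mediated decay stood on the same side as the hosts, with 6 of 9 below the culture in all 6 tumours and 1 above, and a median of -0.59. ATF4, a transcription factor of the amino acid and stress response, averaged 230 ± 32.7 CPM in recurrent and 263 ± 11.8 CPM in primary tumours (SD, n = 3 each), against 464 CPM in the culture. DDIT3, which ATF4 activates, averaged 14.3 ± 4.06 CPM in recurrent and 23.4 ± 5.32 CPM in primary tumours (SD, n = 3 each), against 39.9 CPM in the culture. Other targets stood elsewhere. SMG5 averaged 123 CPM in recurrent and 101 CPM in primary tumours, above its 76.8 CPM in the culture. UPF1 averaged 98.8 CPM in recurrent and 81.0 CPM in primary tumours, against 96.9 CPM in the culture. Of the 18 decay factors 3 were below and 6 above the culture, with a median of 0.16. The assembly factors had 2 below and 3 above of 11, with a median of 0.04, and the MYC network 4 below and 1 above of 9, with a median of -0.10.

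The sums of nested C/D RNAs given above also lay low beside the culture. All 6 tumours were below 106 CPM for the C/D genes outside SNHG14 and below 63.0 CPM for SNORD116. For the box H/ACA RNAs other than SNORA73A and SNORA73B, every tumour but recurrent tumour 1 (99.0 CPM) was below the culture (81.4 CPM). The 4 named scaRNAs summed to 91.7, 69.4 and 63.8 CPM in recurrent and 86.0, 157 and 61.5 CPM in primary tumours, and all were above the 57.9 CPM of the culture.

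Tumours were last compared with the controls labelled as tumour-free, of which control 3, with most of the control counts of the hosts, also held many counts of the U251 genes. SNHG3, at 363 to 731 CPM in the tumours, had 6.24, 22.6 and 292 CPM in controls 1, 2 and 3, from 8.5, 38.5 and 1212.8 estimated counts. GAS5, at 69.0 to 133 CPM in the tumours, had 2.21, 5.87 and 48.1 CPM in the controls, from 3.0, 10.0 and 200.0 counts. Of the 31 hosts 8, 17 and 28 were counted in the 3 controls. Control 3 had a graft percentage of 4.9%, against 0.33% and 0.55% in the other controls. SNHG28, which was above the culture in all tumours, stood at 2.89 CPM in control 3 and so above every tumour (1.38 to 2.54 CPM), from 12 estimated counts. Control 3 also lay within the range of the tumours for SNHG10 (11.0 CPM), SNHG22 (2.65 CPM), SNHG11 (2.40 CPM), EPB41L4A-AS1 (5.29 CPM) and SNHG18 (0.481 CPM), while SNHG26 and SNHG27 had no count in it. Control 3 was below all 6 tumours for the remaining hosts when scaled by library total. Structural small RNAs are part of that total and took 31.7% of control 3, against 6.41% to 14.51% in the tumours. With structural small RNAs left out of the totals, control 3 did not stay below every tumour for all of these hosts. It then lay above recurrent tumour 2 for SNHG3, above recurrent tumour 1 for SNHG16, and above recurrent tumour 3 for SNHG1 and SNHG20.

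No host was called by edgeR in this comparison, where 0.927% of 16389 genes were called higher in tumours and 4.5% lower. DESeq2 called none either (smallest adjusted p of a host 0.176), with 0.848% of genes called higher and 7.6% lower. By edgeR's p without adjustment, under 0.05, there were 5 hosts higher (GAS5, SNHG9, SNHG6, SNHG4 and SNHG3) and 0 lower, against 9.81% and 9.46% of genes. The log2 fold change was above 0 for 23 of the 29 tested hosts, against 62.3% of all genes, with a median of 0.60 for hosts and 0.21 for all genes. These are counts of human genes, and graft percentages were 0.33%, 0.55% and 4.9% in controls 1, 2 and 3. The fold changes therefore do not measure the hosts in tumour against those in normal brain. How far rat reads enter the control counts was not tested. GAS5 gave 0.91 (SE 0.32, adjusted p = 0.151 by edgeR), SNHG6 1.0 (SE 0.37, adjusted p = 0.170) and SNHG3 1.06 (SE 0.48, adjusted p = 0.255). SNHG9 had no count in any control, and its tumour levels of 0.601 to 1.80 CPM did not exceed the highest of the limits that 3 counts set in the controls (0.721 to 2.208 CPM), so no fold is given. SNHG4 had 0.0, 0.0 and 2.0 counts in controls 1, 2 and 3, and its tumour levels of 1.65 to 4.36 CPM reached below the highest of these limits. Its log2 fold change ran from 1.83 to 8.59 with 1 library left out. In the same edgeR fit, with all 3 controls, 1 of 18 decay factors and 3 of 27 coding snoRNA hosts were called lower in tumours, against 4.5% of all genes, and no gene of the lists was called higher.

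The size of these values moved with the scaling. TMM factors were 0.0962, 0.1937 and 1.3879 in the controls, where structural small RNAs took 92.63%, 89.76% and 31.7% of the counts, and with plain library totals the medians were 2.21 for hosts and 1.74 for all genes. Without control 3, 1 host was called, SNHG3 with a log2 fold change of 1.63 (adjusted p = 0.0351 by edgeR), and the medians were 1.45 and 1.15. That call rests on 8.5 and 38.5 estimated counts of SNHG3 in controls 1 and 2. Over all the fits with 1 library left out, 389 to 2644 genes were called, higher and lower together. SNHG3 was thus 1 of at least 389 genes called in its own fit. The share of all genes called higher in that fit is not given here.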

How the data were processed

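Strand-specific, ribosomal-RNA-depleted total RNA libraries were read in pairs, per the labels' protocols. The authors deposited Salmon estimated counts per gene, neither whole nor scaled between libraries; STAR, Salmon 1.10.3, DESeq2 and the GRCh38 build are named in the submitters' processing notes. Settings and annotation release were not given in the sources used here. Of the gene IDs, 58261 of 62754 matched GENCODE release 29 on GRCh38, which gave coordinates, lengths and sequences. Groups follow the treatment label, and replicate numbers follow record order and pair nothing.

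Counts were rounded for every test. edgeR 4.0.16 (R 4.3.3) used TMM factors, its default filter on low counts and the quasi-likelihood F test, two-sided, with p-values adjusted by Benjamini-Hochberg across every tested gene and called under 0.05. The SE is the log2 fold change divided by the square root of F. DESeq2 1.42.0, limma-voom (limma 3.58.1), other scalings, filters, covariates and left-out libraries were the alternatives. CPM values refer to the library total. The culture comparison used log2 ratios with 0.5 CPM added, for genes at 1 CPM or more. The hosts named with all their values were the 10 highest over the tumours, the 4 with the smallest p in each direction, and any singled out in a comparison with fewer than 5 calls. SNHG10, SNHG20, SNHG30 and EPB41L4A-AS1 were added after their values were seen. The 31 hosts and all lists were chosen with earlier results of these data known.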

Additional observations from a re-analysis of the deposited data

How the results depend on the processing

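No paired analysis was possible because the labels carry no replicate numbers, and those used here follow the order of the records. The count of genes called between recurrent and primary tumours, 1 by edgeR, was 117 with DESeq2, 0 with limma-voom, 411 with no filter on low counts, 0 with the graft percentage as covariate, and 0 to 23 with 1 tumour left out; the count of hosts stayed at 0 throughout. SNHG16 turned to 0.02 with the graft percentage as covariate. With 1 tumour left out, log2 fold changes ran from -0.49 to 0.10 for SNHG3, -0.13 to 0.06 for SNHG16, -0.06 to 0.04 for SNHG14, -0.47 to 0.07 for ZFAS1, -0.25 to 0.09 for SNHG1, -0.15 to 0.59 for SNHG4 and -0.11 to 0.33 for SNHG28, and so changed sign. Between tumours and controls 889 genes were called, against 1385 with DESeq2, 425 with library totals, 2125 with no filter and 389 to 2644 with 1 library left out, where 0 to 1 hosts were called. The count of hosts past 2-fold against the culture, 1, was 0 with TMM-scaled totals, 0 without structural small RNAs, and 1 to 3 with 1 tumour left out, an alternative added after the data were seen. The cause was not tested. Hosts below the culture in all tumours numbered 11 to 18 (18 without primary tumour 2) and those above it 3 or 4 over the same settings. Depth limits hosts under 1 CPM, and in controls 1 and 2 nearly all hosts.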
